A study of Homo sapiens with 6 samples.

Results

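The alpha and beta tubulin genes of HK-2 cells are described here, 10 of the 29483 genes in the deposited expression table. They are the alpha tubulins *TUBA1A*, *TUBA1B*, *TUBA1C*, and *TUBA4A* and the beta tubulins *TUBB*, *TUBB2A*, *TUBB3*, *TUBB4A*, *TUBB4B*, and *TUBB6*. They were chosen by gene symbol as tubulin genes whose mRNAs are known to be autoregulated, with the case and control values of these same libraries already in view, so that their values in this comparison are given as a description. Levels are in FPKM, in which reads are divided by gene length and by library depth, so that genes can be compared with each other. All 10 genes passed the filter on low values (0.5 FPKM or more as the mean of the 6 libraries).

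HK-2 is an immortalised cell line from the proximal tubule of the human kidney. All cells were kept for 7 days in high-glucose (HG) medium with 25 mM glucose. The case group (3 libraries) was then treated with TEPP-46, an activator of the glycolytic enzyme PKM2, at 10 μM for 1 more day, still in high glucose. The control group (3 libraries) was kept without TEPP-46, and whether it received a vehicle is not stated. The series has no group in normal glucose in the labels used here, so the comparison concerns TEPP-46 within high glucose alone. The study describes its replicates as independent, and its methods say that they were treated separately. The reads behind the FPKM values numbered 18634892, 17924033, and 17378713 in control replicates 1, 2, and 3, and 16711931, 16047242, and 15363253 in case replicates 1, 2, and 3. Replicates of the case group varied more than those of the control group, with a median SD over genes of 0.19 against 0.09 on the log2 scale.

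The identity of the cells was checked by marker genes. All 8 proximal tubule markers were below the filter, among them *LRP2*, which encodes the endocytic receptor megalin, and the most abundant of them was *GGT1*, an enzyme of the brush border, at 0.175 FPKM in the control group. Their summed level was 0.505, 0.468, and 0.525 FPKM in the control group and 0.332, 0.342, and 0.335 FPKM in the case group. Epithelial keratins were abundant, with *KRT19* at a mean of 352 FPKM and *KRT8* at 344 FPKM in the control group. The libraries are thus described as those of an epithelial line in which the markers of the differentiated proximal tubule were at or near 0. Markers of endothelium summed to at most 0.065 FPKM in any library.

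Microtubules are hollow polymers of heterodimers of alpha and beta tubulin, and each class is encoded by several genes, called isotypes, which differ mostly at the end of the protein. Cells adjust tubulin mRNA to the amount of free tubulin. When unpolymerised dimers accumulate, the factor TTC5 recognises the beginning of a nascent tubulin chain at the ribosome, and with SCAPER it brings in the CCR4-NOT deadenylase, which leads to decay of the mRNA being translated. Gamma tubulin, which nucleates microtubules, does not begin with this stretch. In epithelial cells such as those of the renal tubule, microtubules carry membrane traffic between the apical and the basal side.

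The beginning of each coding sequence is shown because it is the stretch that this mechanism reads. The first 30 bases of the canonical transcripts were taken from the gene annotation of GRCh38, with the first 4 codons in capitals, and the start of *TUBG1*, a gamma tubulin, is given for contrast.
TUBA1A: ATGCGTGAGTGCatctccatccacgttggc
TUBA1B: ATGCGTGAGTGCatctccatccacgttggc
TUBA1C: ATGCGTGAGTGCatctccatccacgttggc
TUBA4A: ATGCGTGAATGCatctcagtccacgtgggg
TUBB: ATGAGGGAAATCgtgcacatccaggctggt
TUBB2A: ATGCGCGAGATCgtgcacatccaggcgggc
TUBB3: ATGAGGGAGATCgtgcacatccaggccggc
TUBB4A: ATGCGGGAGATCgtgcacctgcaggccggc
TUBB4B: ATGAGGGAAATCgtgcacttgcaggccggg
TUBB6: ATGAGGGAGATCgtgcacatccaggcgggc
TUBG1: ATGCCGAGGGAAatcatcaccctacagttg
The 3 *TUBA1* genes shared all 30 bases. *TUBA4A* differed from them within the first 4 codons only by a synonymous codon, and the beta tubulins differed from each other there only by synonymous codons. Of 19820 canonical coding sequences, 19 began with the same 4 codons as 1 of the 10 genes when synonymous codons were counted as the same, and all 19 were alpha or beta tubulin genes. *TUBG1* was not among them. A match of letters is a description of the sequence and says nothing about decay in these cells.

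On GRCh38, 3 of the alpha tubulin genes lie close together on chromosome 12. *TUBA1B* (ENSG00000123416) spans 49127782 to 49131397, *TUBA1A* (ENSG00000167552) 49184686 to 49189080, and *TUBA1C* (ENSG00000167553) 49188736 to 49274600. *TUBA4A* (ENSG00000127824) lies on chromosome 2 from 219249710 to 219277902. Among the beta tubulins, *TUBB2A* (ENSG00000137267) spans 3153497 to 3157544 and *TUBB* (ENSG00000196230) spans 30717435 to 30725538 of chromosome 6. *TUBB4B* (ENSG00000188229) was found on chromosome 9 from 137241287 to 137243707, *TUBB3* (ENSG00000258947) on chromosome 16 from 89921392 to 89938761, *TUBB6* (ENSG00000176014) on chromosome 18 from 12307669 to 12344320, and *TUBB4A* (ENSG00000104833) on chromosome 19 from 6494319 to 6502848. *TUBA1A* and *TUBA1C* overlap at their ends on opposite strands, and the strand setting of the counting is not given in the sources used here.

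Tubulin genes are alike enough for some reads to be shared. The coding sequences of *TUBA1A* and *TUBA1B* were 97.2% identical, and 19.1% of the 150-base windows of the *TUBA1B* transcript also occurred in another gene. That share was 48.7% for *TUBB2A*, whose windows occurred in *TUBB2B*, a tandem copy with 98.1% coding identity, and the split of reads between this pair is uncertain. It was 92.3% for *TUBB3*, all of it in a read-through gene annotated over the same locus, so the level of *TUBB3* is uncertain too. No window of *TUBA4A*, *TUBB4A*, *TUBB4B*, or *TUBB6* was shared.

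A small group of isotypes made up most of the tubulin mRNA. *TUBB4B*, a broadly expressed beta tubulin, was the most abundant, with FPKM of 431, 429, and 387 in control replicates 1, 2, and 3 and 419, 386, and 398 in case replicates 1, 2, and 3. *TUBB*, the other major beta tubulin of dividing cells, followed with 376, 375, and 374 in the control group and 384, 351, and 366 in the case group. *TUBB4B* was above *TUBB* in each of the 6 libraries. For both genes the case values overlapped the control values, and the log2(FC) of case against control was 0.03 (SE 0.09) for *TUBB4B* and 0.05 (SE 0.08) for *TUBB*. In these bulk libraries, fewer cells with a transcript and less of it per cell cannot be told apart.

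*TUBB6*, a beta tubulin of many non-neuronal tissues, had 102, 92.9, and 92.8 FPKM in the control group and 103, 90.2, and 91.5 FPKM in the case group. *TUBA1C*, the most abundant alpha tubulin, had 97.9, 89.1, and 95.4 FPKM in the control group and 98.7, 85.3, and 86.3 FPKM in the case group. These 2 genes were not in the same order in every library, and their values overlapped in both groups. *TUBB6* was the higher within each library except control replicate 3 (92.8 against 95.4 FPKM). Their log2(FC) was 0.06 (SE 0.10) for *TUBB6* and 0.01 (SE 0.10) for *TUBA1C*.

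*TUBA1B*, a ubiquitous alpha tubulin, was next with 61.9, 56.3, and 60.3 FPKM in the control group and 60.0, 51.1, and 46.1 FPKM in the case group. Its log2(FC) of -0.11 (SE 0.12) was the lowest among the alpha tubulins, with -0.24 without case replicate 1, and the groups overlapped. *TUBA4A*, an alpha tubulin encoded without the terminal tyrosine that the other alpha tubulins carry, had 15.4, 17.3, and 15.5 FPKM in the control group and 16.0, 13.7, and 15.2 FPKM in the case group, with a log2(FC) of -0.03 (SE 0.10). *TUBA1A*, the main alpha tubulin of developing neurons, was measured at 8.78, 7.96, and 8.75 FPKM in the control group and 9.99, 8.60, and 10.4 FPKM in the case group. Of its case values, only that of replicate 2 fell within the control range, and the log2(FC) was 0.26 (SE 0.11).

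*TUBB2A*, a beta tubulin abundant in neurons, was the least even of the 10 genes within the case group. It had 10.1, 10.1, and 9.50 FPKM in the control group and 15.6, 12.7, and 8.74 FPKM in the case group, so that case replicate 1 lay above and case replicate 3 below all control libraries. The log2(FC) was 0.35 (SE 0.20), with 0.14 without case replicate 1 and 0.59 without case replicate 3. *TUBB3*, known as the neuronal class of beta tubulin, was the least abundant, with 0.545, 0.856, and 0.468 FPKM in the control group and 0.473, 0.506, and 0.455 FPKM in the case group. It rested on 31 to 68 reads per library, and its log2(FC) of -0.22 had an SE of 0.30. The value was -0.38 without control replicate 3, and without control replicate 2, its highest library, the gene was below the filter.

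*TUBB4A* stood apart from the other 9 genes. This beta tubulin is known mainly from neurons and the myelinating cells of the brain. It had 4.69, 4.36, and 4.0 FPKM in control replicates 1, 2, and 3 and 1.76, 1.42, and 1.86 FPKM in case replicates 1, 2, and 3. All case libraries lay below all control libraries, and the spread within each group was small beside the gap between them. The mean was 4.35 ± 0.345 FPKM (SD, n = 3) in the control group and 1.68 ± 0.230 FPKM (SD, n = 3) in the case group. After scaling between libraries and addition of 0.1, the log2(FC) was -1.25 (SE 0.14), or 0.419 times the control level. The values rested on 303, 271, and 241 reads in the control group and 102, 79, and 99 reads in the case group. Leaving out each library in turn gave log2(FC) of -1.32 to -1.12.

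**Figure D1:**
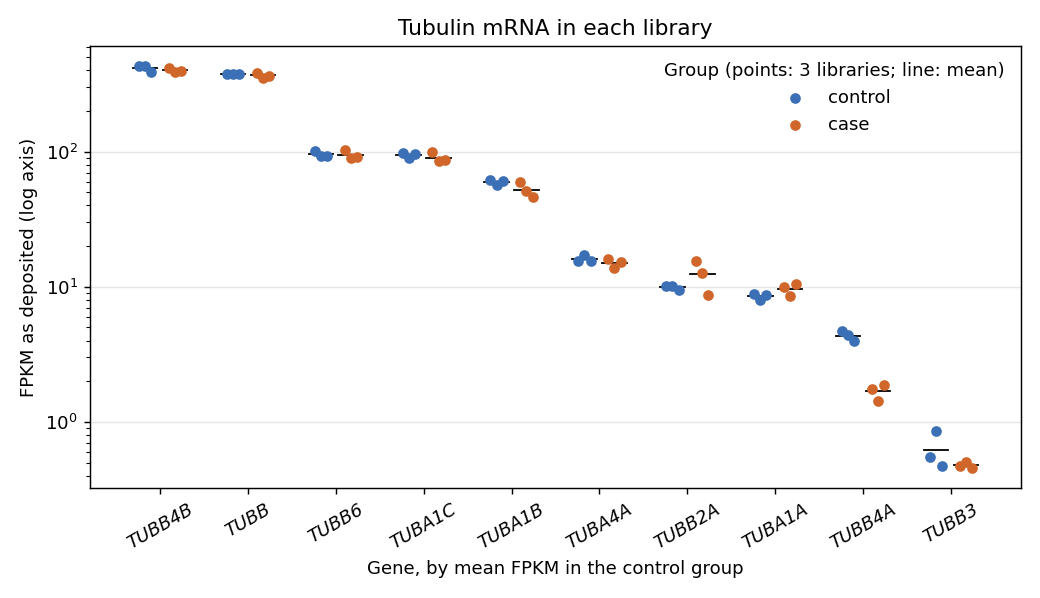
FPKM as deposited (log axis) of the 10 alpha and beta tubulin genes in the 3 control and 3 case libraries, ordered by the mean of the control group, with a line at each group mean. The groups overlap for 9 genes, and the 3 case values of *TUBB4A* (1.42 to 1.86 FPKM) lie below the 3 control values (4.0 to 4.69 FPKM).

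Of the 10 genes, 1 (*TUBB4A*) was among the downregulated DE genes by limma at an adjusted P-value of at most 0.05, and 0 were upregulated. At an unadjusted p under 0.05 by limma, 1 was lower (*TUBB4A*) and 1 higher (*TUBA1A*), against 16.2% and 16.8% of all tested genes. Voom on recovered reads also gave 1 lower and 0 higher, against 10.3% in each direction. At the unadjusted threshold, 6 of the 10 were lower with TPM and 5 with quantile normalization, beside 4396 and 2350 of all 13599 tested genes. Of the alpha tubulins, 0 were then higher with TPM and 1 with quantile normalization, and 0 beta tubulins were higher with either. Of all 13599 tested genes, 794 (5.84%) were downregulated and 998 (7.34%) were upregulated. Without case replicate 2, *TUBA1A* was called too (log2(FC) 0.36). The genes were chosen with this comparison known, and nothing is read from their count. The case values did not overlap the control values for 1 of the 10 genes, against 39.9% of tested genes (20.4% with all case values below and 19.5% with all above). The median log2(FC) was 0.02 over the 10 genes and 0.00 over all tested genes.

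**Figure D2:**
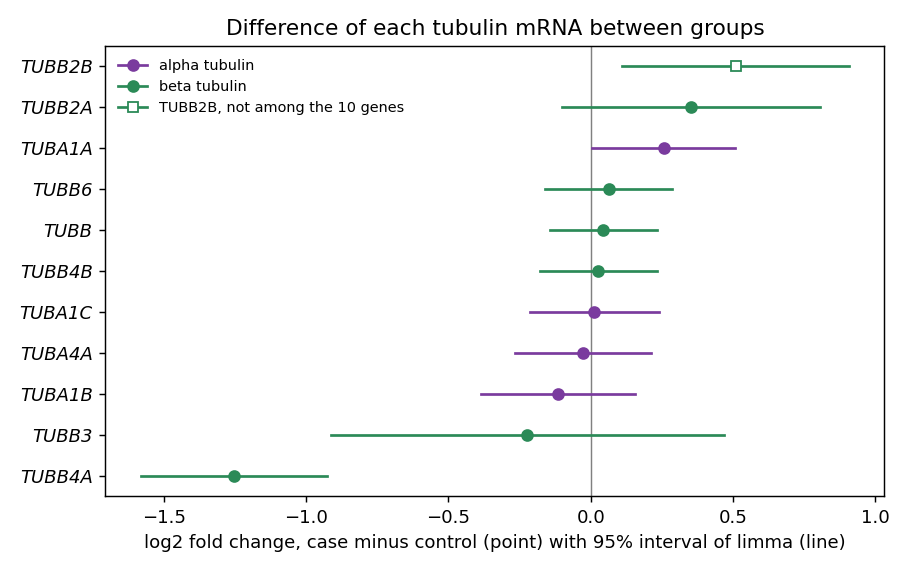
Log2 fold change of case against control for the 10 tubulin genes and *TUBB2B*, with the 95% interval from limma as a line, ordered by value. *TUBB4A* lies at -1.25, and the other 9 genes lie between -0.22 (*TUBB3*) and 0.35 (*TUBB2A*).

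Summed over isotypes, tubulin mRNA differed little between the groups. The 4 alpha tubulins together had 178 ± 6.83 FPKM (SD, n = 3) in the control group and 167 ± 15.2 FPKM (SD, n = 3) in the case group, and the 6 beta tubulins had 901 ± 29.5 and 877 ± 42.3 FPKM (SD, n = 3 each). In the deposited values, the mean of the case group was the lower for both classes. After scaling between libraries, the beta sum was instead higher in the case group (898 against 873), and the alpha sum was 171 against 173. All of these differences were smaller than the SD of the case group. The ratio of the alpha sum to the beta sum was 0.198 ± 0.010 in control libraries and 0.190 ± 0.009 in case libraries (SD, n = 3 each).

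Control libraries devoted 0.369 ± 0.012% of their summed FPKM to the 10 genes, and case libraries 0.327 ± 0.013% (SD, n = 3 each). The groups did not overlap in this share (0.355% to 0.377% against 0.317% to 0.343%). Of the reads, the 10 genes held 0.332% and 0.320%. All FPKM of a library summed to between 289245 and 295418 in control libraries and to between 310111 and 323755 in case libraries, so a share of this sum is set against a larger total in the case group.

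The make-up of each class by isotype is a measure that does not depend on scaling between libraries. Of the beta tubulin FPKM, *TUBB4B* held 46.1% in control libraries and 45.7% in case libraries, *TUBB* held 41.6% and 41.8%, and *TUBB6* held 10.6% and 10.8%. *TUBB4A* held 0.508%, 0.479%, and 0.461% in the control libraries and 0.191%, 0.169%, and 0.215% in the case libraries. It was thus a minor isotype in both groups, and its difference moved the beta sum by less than 1 SD. *TUBB2A* held 1.09%, 1.11%, and 1.09% in the control libraries and 1.69%, 1.51%, and 1.01% in the case libraries. Among the alpha tubulins, *TUBA1C* held 52.8% and 53.9%, *TUBA1B* 33.4% and 31.3%, *TUBA4A* 9.04% and 8.96%, and *TUBA1A* 4.77% and 5.80% of the class in the control and case groups. The share of *TUBA1A* was 4.66% to 4.86% in the control libraries and 5.41% to 6.58% in the case libraries, and the groups did not overlap in this share. Nor did they for *TUBA1B* (33.0% to 33.6% against 29.2% to 32.5%) and *TUBA1C* (52.2% to 53.2% against 53.5% to 54.6%), whereas they overlapped for *TUBA4A*.

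**Figure D3:**
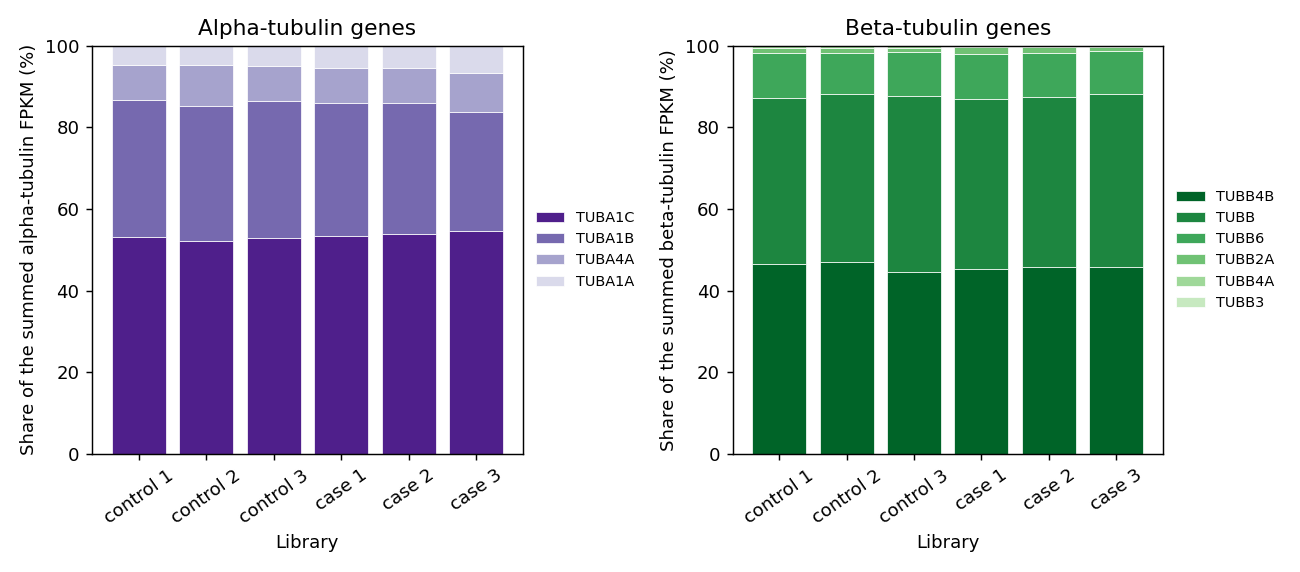
Share of each isotype in the summed FPKM (percent) of the 4 alpha tubulin genes and of the 6 beta tubulin genes, as stacked bars, 1 bar per library. *TUBB4B* and *TUBB* hold most of the beta tubulin FPKM and *TUBA1C* and *TUBA1B* most of the alpha tubulin FPKM in each of the 6 libraries.

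The libraries of the case group were not alike for these genes. On the log2 scale, against the mean of the control group, *TUBA1C* was at 0.20 in case replicate 1 and at -0.11 and -0.05 in case replicates 2 and 3. *TUBB6* was at 0.24, -0.05, and 0.01, and *TUBB* at 0.16, -0.06, and 0.04 in the same order. After scaling, case replicate 1 was the highest case library for 8 of the 10 genes, all but *TUBB3* and *TUBB4A*. In FPKM as deposited it was the highest for 7, since *TUBA1A* was then highest in case replicate 3. No share over all tested genes stands beside these counts, so they are not read as a trait of the tubulins. In the shortest class of tested genes by length, described below, the medians of case replicates 1, 2, and 3 were 0.25, 0.06, and 0.22 against the control mean. They were 0.13, 0.04, and 0.10 in the second class and -0.06, -0.01, and -0.05 in the third. The tested genes whose values over the 6 libraries were most like the mean of the 10 genes were *CRAT* (Pearson's r = 0.99), *PLCB3* (0.99), *TRABD* (0.99), *SPRYD3* (0.99), and *RELT* (0.99). The mean of the 10 genes includes *TUBB4A*, whose difference between the groups was by far the largest. The log2(FC) of the 5 genes ran from -0.17 (*RELT*) to -0.07 (*PLCB3*), whereas the median over the 10 genes was 0.02. Likeness to this mean is therefore not likeness to most of the 10 genes in the difference between groups. The correlations describe 6 libraries that share the difference in depth between the groups, and none of the 5 genes was DE.

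Genes of the same family outside the 10 were at low levels. Of the 8 listed, 7 were in the table, *TUBA3C* was not analysed here, and only *TUBB2B* passed the filter. *TUBB2B* had 1.91, 2.34, and 2.47 FPKM in the control group and 3.71, 2.61, and 2.91 FPKM in the case group. The case values lay above the control values without overlap, but the log2(FC) of 0.51 (SE 0.17) did not pass by limma (adjusted P-value 0.0858), and 41.6% of its windows occur in another gene, mostly *TUBB2A*. It passed without case replicate 2 (0.64). Below the filter, *TUBB8* had 0.198, 0.187, and 0.270 FPKM in control libraries and 0.10, 0.105, and 0.131 FPKM in case libraries. *TUBA3D* had 0.369, 0.105, and 0.144 FPKM in control libraries, was at 0 in case replicate 1, and had 0.039 and 0.041 FPKM in case replicates 2 and 3. For both genes the case values lay below the control values without overlap, on at most 14 reads per library. *TUBB1* had at most 0.223 FPKM in any library, *TUBA3E* at most 0.149, *TUBA8* at most 0.111, and *TUBAL3* at most 0.067.

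Some of these isotypes are best known from neurons, and neuronal markers were therefore examined. Of 4 markers in the table, *RBFOX3*, *SYP*, and *SNAP25* were below the filter, and *NEFL*, a neurofilament subunit, was the most abundant. *NEFL* had 1.77, 1.96, and 2.31 FPKM in the control group and 3.01, 2.61, and 2.75 FPKM in the case group, and rose with a log2(FC) of 0.53 (adjusted P-value 0.0448 by limma). The summed level of the 4 markers was 2.40, 2.63, and 2.82 FPKM in the control libraries and 3.51, 3.22, and 3.31 FPKM in the case libraries. Without *NEFL*, the other 3 markers summed to 0.628, 0.673, and 0.510 FPKM in control libraries and to 0.499, 0.611, and 0.556 FPKM in case libraries, which overlap. Of 6 tested epithelial markers, 1 was downregulated and 0 upregulated by limma, with a median log2(FC) of -0.08. The gene that passed, *CDH1*, which encodes E-cadherin, fell from 3.42 to 2.05 FPKM (log2(FC) -0.64, adjusted P-value 0.0156 by limma). The part of these markers in the tubulin values was not tested.

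The genes nearest to *TUBB4A* were examined after its value had been seen. The closest tested gene, *DENND1C*, 11762 bases away, had a log2(FC) of -0.51 (SE 0.20) that did not pass by limma (adjusted P-value 0.120), with case replicate 1 within the control range after scaling. On the same side, *CRB3* had -0.04 and the noncoding gene ENSG00000275234 had 0.63. On the other side, *TNFSF9* had 0.20, *CD70* 0.29, and *C3* -0.28. After scaling, all case values lay above the control values for ENSG00000275234 and *CD70* and below them for *C3*. None of the 3 tested genes on either side was DE. The tested gene most like *TUBB4A* over the 6 libraries, also chosen after seeing the values, was *MAP4K2* (Pearson's r = 0.99).

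The partners of tubulin were then compared, as genes that the choice of the 10 did not use. Together with the 8 other alpha and beta tubulins, of which only *TUBB2B* was tested, the lists held 148 genes, of which 144 were in the table and 124 passed the filter. By limma, 10 were upregulated and 9 were downregulated, or 8.06% and 7.26%, against 7.34% and 5.84% of all tested genes. At an unadjusted p under 0.05, 16.9% were higher and 28.2% lower by limma, against 16.8% and 16.2% of all tested genes. By voom, 8.87% were higher and 19.4% lower, against 10.3% in each direction. The share of partners called was thus near that of all tested genes for higher genes in these fits, and above it for lower genes, by the least at the adjusted threshold of limma. With a correction for length, described next, 5.65% were higher and 6.45% lower, against 6.43% and 4.45%. At an unadjusted p under 0.05 by limma with this correction, 19.4% of partners were higher and 16.9% lower. Of all 13599 tested genes, 2209 were then higher and 1930 lower. The counts of each list below are set beside these shares of all tested genes. Without any 1 of the control libraries, 0 partners were called in either direction at the adjusted threshold (13 to 15 higher and 23 to 27 lower at an unadjusted p under 0.05). Of all tested genes, 0.40% to 0.56% were then higher and 0.10% to 0.21% lower at the adjusted threshold. At the unadjusted threshold, 1605 to 1744 of all tested genes were higher and 1424 to 1596 lower. Without case replicate 2, 26 were higher (21.0%, against 13.4% of all tested genes) and 28 lower (22.6%, against 12.4%), among them 13 and 1 of the folding list, 0 and 9 of the microtubule-associated proteins, 6 and 9 of the motors, 2 and 2 of the gamma-tubulin list, and 0 and 2 of the autoregulation list, with *TUBB2B* among the higher genes. Without case replicate 3, 1 was higher (0.81%) and 0 were lower, against 0.89% and 0.52% of all tested genes. At an unadjusted p under 0.05 by limma, 13 partners were then higher and 27 lower, beside 1734 and 1645 of all tested genes.

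Gene length moved with the difference between the groups across the whole table and is given here before the lists. When the tested genes were divided into 4 equal classes by the length behind the FPKM, the median log2(FC) was 0.16 in the shortest class (up to 2410 bases), 0.08 and -0.05 in the next classes, and -0.19 in the longest class (from 6805 bases). For 15324 of the 27922 genes above 0 this length was inferred from the values. It may be off by a common factor per gene, and the shortest class begins at 36 bases. The classes and the correction for length both rest on these lengths. In the shortest class 11.0% of genes were upregulated and 1.85% downregulated, and in the longest 2.38% and 12.4%. Against the control mean, the median of the longest class was -0.28 in case replicate 1, -0.07 in case replicate 2, and -0.21 in case replicate 3. The 10 tubulin genes, between 1727 and 4631 bases, lie in the first 3 classes. With a correction for length, chosen after seeing the data, the log2(FC) of *TUBB4A* (3466 bases) was -1.33, that of *TUBA1A* 0.18, that of *TUBB2A* 0.19, and that of *TUBB4B* -0.12.

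The folding machinery of tubulin comprises prefoldin, which holds the new chain, the chaperonin CCT, which folds it, and the tubulin cofactors, which build the dimer. Of 22 tested genes in this list, 6 were upregulated and 0 downregulated by limma (9 and 2 at an unadjusted p under 0.05, and 7 and 1 by voom), with a median log2(FC) of 0.20. Of all tested genes, 7.34% and 5.84% were called by limma, 16.8% and 16.2% at an unadjusted p under 0.05, and 10.3% in each direction by voom. *CCT2*, a CCT subunit, had 87.5, 90.7, and 83.4 FPKM in the control group and 114, 120, and 126 FPKM in the case group, and rose with a log2(FC) of 0.54 (SE 0.07, adjusted P-value 0.0101 by limma). The prefoldin subunits *PFDN1* (0.47, from 24.7 to 32.5 FPKM) and *PFDN2* (0.42, from 250 to 316 FPKM) rose too, as did *CCT8* (0.33), *CCT4* (0.28), and *CCT5* (0.28). All case values lay above all control values for 13 of the 22 genes, against 19.5% of tested genes.

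The tubulin cofactors did not pass by limma in the main setting. *TBCA*, which binds beta tubulin, had a log2(FC) of 0.21 (adjusted P-value 0.0978), and *TBCB*, which binds alpha tubulin, had 0.28 (0.117). *TBCC*, a GTPase-activating cofactor, was at 0.15 (0.377). *TBCD*, which also takes beta tubulin, had 14.9, 14.1, and 14.7 FPKM in the control group and 11.7, 10.7, and 9.25 FPKM in the case group, and its log2(FC) of -0.39 had an adjusted P-value of 0.0511. *TBCD* passed in 10 of 20 alternative settings, voom among them, and *TBCA* and *TBCB* each passed in 3. *TBCE* was not analysed here. With the correction for length, *TBCD* was at -0.09, and 3 genes of the folding list were upregulated and 1 downregulated. *CCT2* (0.52), *CCT5* (0.34), and *PFDN1* (0.32) still passed, and the lower gene was *VBP1*, a prefoldin subunit (-0.41). *PFDN2* (0.23), *CCT8* (0.24), and *CCT4* did not pass with the correction. The counts of the folding list depended on the scaling. With TPM its median was 0.00, beside -0.19 over all tested genes. Of its genes, 1 was then higher and 3 lower, against 2.82% and 17.6% of all tested genes. With quantile normalization 2 were higher and 2 lower, against 6.37% and 6.64%. For FPKM as deposited 3 were higher and 2 lower, against 4.87% and 8.27%.

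Genes of tubulin mRNA autoregulation were compared because they act on the mRNAs described here. Of 12 tested genes, 0 were called in either direction by limma (1 higher and 3 lower at an unadjusted p under 0.05, and 0 and 2 by voom), with a median log2(FC) of 0.04. *TTC5*, which recognises the nascent tubulin chain, had 3.26, 3.14, and 3.07 FPKM in the control group and 3.19, 3.15, and 3.14 FPKM in the case group. Its log2(FC) was 0.08 (SE 0.10). *SCAPER*, the adaptor to CCR4-NOT, had 0.726, 0.750, and 0.734 FPKM in the control group and 0.448, 0.955, and 0.768 FPKM in the case group, and the case libraries lay on both sides of the control range. *CNOT1*, the scaffold of CCR4-NOT, had 24.7, 27.1, and 24.6 FPKM in the control group and 13.3, 22.7, and 13.9 FPKM in the case group. Its log2(FC) was -0.57 (SE 0.17, adjusted P-value 0.0629 by limma), and it passed in 7 of 20 alternative settings, among them the fit without case replicate 2 (-0.80). *CNOT1* has 10852 bases, and with the correction for length its log2(FC) was -0.34. With that correction *TTC5* was at 0.28 and *SCAPER* at 0.25 without passing, and the median of the list was 0.13. The CCR4-NOT subunits *CNOT2* (0.44) and *CNOT3* (-0.32) then passed.

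Among gamma, delta, and epsilon tubulins and the proteins of the gamma-tubulin ring, which nucleates microtubules, 0 of 13 tested genes were called in either direction by limma (0 higher and 3 lower at an unadjusted p under 0.05, and 0 and 1 by voom). *TUBG1*, whose start is shown above, had 64.2, 63.1, and 60.9 FPKM in the control group and 72.5, 62.8, and 69.5 FPKM in the case group, with a log2(FC) of 0.20 (SE 0.09). *TUBE1*, epsilon tubulin of the centriole, had 0.11 (SE 0.13). The stathmins bind free tubulin dimers. *STMN1* had 0.21 and *STMN3* -0.42 (adjusted P-values 0.157 and 0.0505), and 0 of these 2 tested genes were called by limma (by unadjusted p under 0.05, 0 were higher and 1 lower, and voom called 0). With the correction for length, *STMN3* (-0.53) and, of the gamma-tubulin list, *TUBG2* (-0.35) passed.

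Tubulin is modified after translation, often but not always on the tail of the protein. Of 14 tested enzymes, 1 was upregulated and 1 downregulated by limma (1 and 4 at an unadjusted p under 0.05, and 0 and 3 by voom). *VASH1*, a tyrosine carboxypeptidase of alpha tubulin, fell from 1.33 to 0.773 FPKM (log2(FC) -0.64, adjusted P-value 0.0486), and its small partner *SVBP* rose from 1.56 to 2.27 FPKM (0.60, adjusted P-value 0.0364). Both calls were close to the threshold, and of 20 alternative settings *VASH1* passed in 9 and *SVBP* in 10. *SVBP* did not pass by voom, and neither gene passed with the correction for length (-0.55 and 0.42). *TTL*, which adds the tyrosine back, had -0.08, *ATAT1*, which acetylates alpha tubulin, -0.09, and the deacetylase *HDAC6* -0.35 (adjusted P-value 0.0739 by limma). With the correction for length, these values were 0.27, -0.12, and -0.13.

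Of the proteins that bind the microtubule lattice or its ends, 2 of 22 tested genes were downregulated and 0 upregulated by limma (11 and 0 at an unadjusted p under 0.05, and 8 and 0 by voom). Lower genes made up 5.84%, 16.2%, and 10.3% of all tested genes by these rules. The median log2(FC) was -0.33, and all case values lay below all control values for 13 genes, against 20.4% of tested genes. *MAP4*, the main microtubule-associated protein of non-neuronal cells, had 31.0, 32.7, and 30.5 FPKM in the control group and 23.3, 24.7, and 20.1 FPKM in the case group, and fell by 0.39 on the log2 scale (adjusted P-value 0.0356). *MAP7*, which recruits kinesin, fell from 1.98 to 1.24 FPKM (log2(FC) -0.55). *MAP1B* had -0.58 without passing (adjusted P-value 0.0663), and -0.38 without case replicate 1, and it passed in 6 of 20 alternative settings. The median length of this list was 8000.5 bases, and with the correction for length 0 of its genes were called (5 lower at an unadjusted p under 0.05), with a median of -0.19 and *MAP4* at -0.06.

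Of 30 tested genes for motors that run on microtubules, 2 were upregulated and 6 downregulated by limma (7 and 10 at an unadjusted p under 0.05, and 3 and 9 by voom), with a median log2(FC) of -0.12. These were 6.67% and 20% of the list, against 7.34% and 5.84% of all tested genes. *DYNC1H1*, the heavy chain of cytoplasmic dynein, had 85.2, 92.2, and 82.9 FPKM in the control group and 44.5, 64.5, and 44.9 FPKM in the case group, and fell by 0.70 on the log2 scale (SE 0.13, adjusted P-value 0.0192). *DYNC1LI2*, a light intermediate chain of dynein, fell from 14.5 to 8.18 FPKM (log2(FC) -0.77), whereas *DYNC1LI1*, its paralog, rose from 8.03 to 9.95 FPKM (0.38). The other downregulated genes were *KIF13B*, a kinesin (-0.57), *DYNLT3*, a dynein light chain (-0.48), *DCTN1*, the large dynactin subunit (-0.43), and *BICD2*, a dynein adaptor (-0.40), and the other upregulated gene was *DYNLRB1*, also a dynein light chain (0.46). *KIF5B*, the ubiquitous kinesin heavy chain, had 27.5, 28.6, and 28.0 FPKM in the control group and 12, 22.4, and 19.1 FPKM in the case group without passing (-0.62, adjusted P-value 0.0588). It passed in 8 of 20 alternative settings, among them the fit without case replicate 1, its lowest library, where the log2(FC) was -0.38. With the correction for length, 4 motors were lower and 3 higher. *DYNC1H1* (-0.35), *DYNC1LI2* (-0.62), *DYNLT3* (-0.57), *BICD2* (-0.32), *DYNC1LI1* (0.45), and *DYNLRB1* (0.32) still passed, and *PAFAH1B1*, the dynein regulator LIS1 (0.39), passed with the correction and not without it.

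Among 8 tested enzymes that sever or depolymerise microtubules, 1 was upregulated and 0 were downregulated by limma (2 and 1 at an unadjusted p under 0.05, and 1 and 0 by voom). *KATNA1*, the catalytic subunit of katanin, rose from 7.18 to 8.68 FPKM (log2(FC) 0.34, adjusted P-value 0.0327), and did not pass with the correction for length (0.20).

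**Figure D4:**
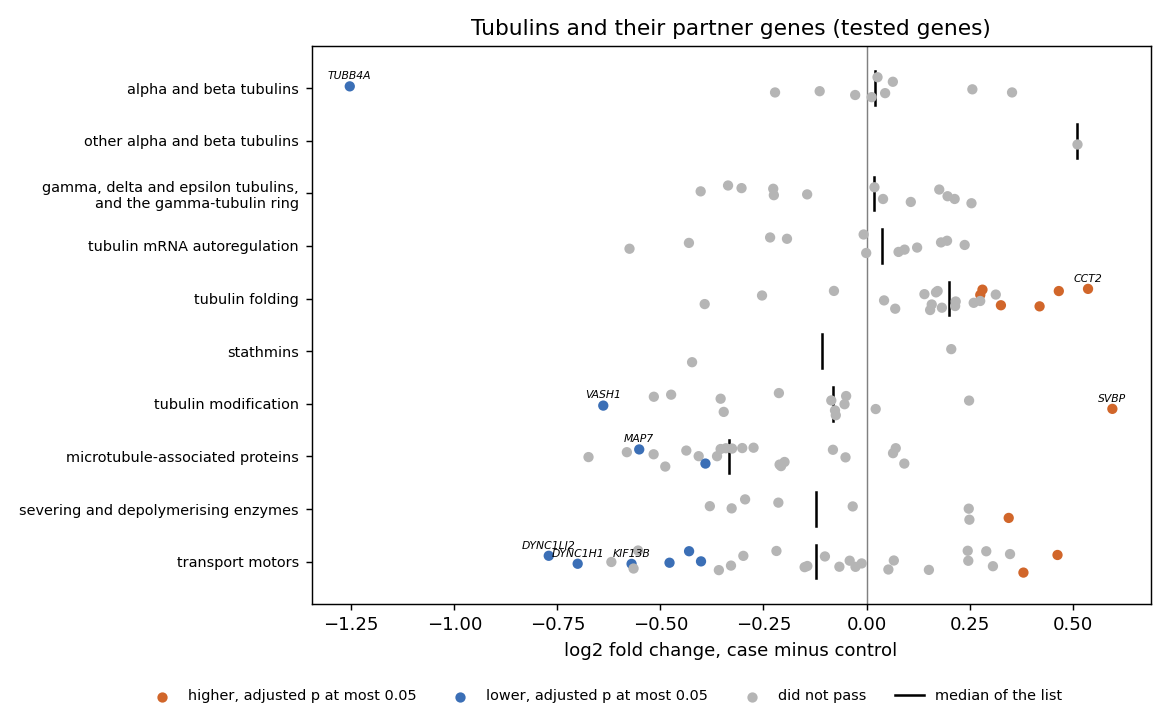
Log2 fold change of case against control for the tested genes of the tubulin family and of each partner list, 1 point per gene, coloured by the direction of genes with an adjusted P-value of at most 0.05 by limma, with a line at the median of each list. The folding list is centred above 0 (median 0.20) and the microtubule-associated proteins below 0 (median -0.33).

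The counts in both directions depended on the scaling between libraries. After division by median-of-ratios factors (0.944 to 1.04), the median log2(FC) of all genes was 0.00, with 998 upregulated and 794 downregulated genes. For FPKM as deposited the counts were 662 and 1124, with a median of -0.08. As TPM they were 383 and 2387, with a median of -0.19. The log2(FC) of *TUBB4A* was -1.33 and -1.45 under these scalings. Those of *TUBB* and *TUBB4B* were close to 0 with the main scaling and were -0.26 and -0.30 with quantile normalization, which gives all libraries the same distribution of values.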

How the data were processed

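RNA-seq reads of 6 libraries were quality-filtered by the authors, who then used HISAT2 2.1.0 with GRCh38.p13 and HTSeq 0.6.0 to obtain gene counts. The deposited values are FPKM, 1 column per library. The version of the annotation is not given in the sources used here. By Ensembl identifier, 29063 of 29483 genes matched a GRCh38 annotation, which gave symbols, positions, and coding sequences. Whole reads were recovered for all 27922 genes above 0 (within 0.01 reads plus 5e-07 of the reads). The annotated length was used for 12598 genes and mostly the shortest length that fits for the others. A common factor per gene therefore remains possible in both its reads and its length.

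Each library was divided by its median-of-ratios factor, and log2 was taken after addition of 0.1. The test covered genes whose FPKM averaged 0.5 or more, and compared case with control by limma 3.58.1 in R 4.3.3 with an intensity trend and no covariate, and P-values were adjusted over 13599 genes after Benjamini and Hochberg. A gene was called DE up to an adjusted p of 0.05. The procedure was tested on simulated data. Fold changes of low genes are understated on this scale. As the reads carry no molecular identifiers, they do not count molecules.

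The members, the partner lists, and the markers were chosen with earlier results of these data known. All 10 members, 18 fixed partners (of which *TBCE* was not analysed here), the other alpha and beta tubulins, up to 4 called genes per partner list with the largest change, and the 5 genes most like the mean of the members were named by rule. *STMN3*, *TUBG2*, *CNOT2*, *CNOT3*, *CCT4*, *CCT5*, *VBP1*, *PAFAH1B1*, *DYNC1LI1*, *DYNLRB1*, *DCTN1*, *BICD2*, *MAP4K2*, and the neighbours of *TUBB4A* were named after their values were seen. Alternatives were other pseudocounts, filters, and scalings, other settings of limma, voom on recovered reads, GC and length corrections, a replicate block, and leaving out each library.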

Additional observations from a re-analysis of the deposited data

How the results depend on the processing

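*TUBB4A* kept its direction and an adjusted p of at most 0.05 in all 20 settings (log2(FC) -1.45 with TPM to -0.94 with a pseudocount of 1). The number of the 10 members called lower was 1 except with quantile normalization (3), where *TUBB* (-0.26) and *TUBB4B* (-0.30) reversed. Of all tested genes, 6.64% were lower with quantile normalization and 5.84% in the main setting. Over all tested genes, 794 were lower and 998 higher. The lower count was 177 with no filter, 2387 with TPM, 416 without the intensity trend, 1404 by voom, 1519 with GC correction, and 1239 with the replicate block and GC correction. The higher count was 347 with no filter, 662 for FPKM as deposited, 383 with TPM, 436 without the intensity trend, and 1784 with GC correction. Leaving out 1 library gave 14 to 1682 lower and 55 to 1813 higher genes. Both lowest counts came without control replicate 2 and both highest without case replicate 2. Counts without control replicate 1 were 29 and 76, without control replicate 3 19 and 68, and without case replicate 3 71 and 121.

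Of the partner genes, 9 were lower and 10 higher. The lower count was 0 with no filter (32 at an unadjusted p under 0.05 by limma), 14 with a mean FPKM of at least 1, 17 for FPKM as deposited, 37 with TPM, 5 without the intensity trend, 24 by voom, 25 with GC correction, and 19 with the replicate block and GC correction. The higher count was 2 with no filter, 4 for FPKM as deposited, 2 with TPM, 6 with quantile normalization, 2 without the intensity trend, 16 with GC correction, and 18 with the replicate block and GC correction. The share of lower partners was above that of all tested genes with TPM (29.8% against 17.6%), GC correction (20.2% against 11.2%), voom (19.4% against 10.3%), FPKM as deposited (13.7% against 8.27%), and the replicate block with GC correction (15.3% against 9.11%). With a mean FPKM of at least 1 it was 11.9% against 8.11%, and without the intensity trend 4.03% against 3.06%. It was 7.26% against 6.64% with quantile normalization. It was 0% with no filter (0.63% of all tested genes), without case replicate 3 (0.52%), and without 1 control library (0.10% to 0.21%). At the unadjusted threshold with no filter, 22.4% of partners were lower, beside 2412 of all 27922 genes. Leaving out 1 library gave 0 to 28 lower and 0 to 26 higher partner genes. Of the 20 settings, the called partner genes named by rule passed in 9 (*CCT8* and *VASH1*) to 17 (*CCT2*). The cause of these changes was not tested, except that a fit without a library holds fewer samples.

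After each gene was centred on its group mean, the correlations of same-numbered libraries were 0.063, 0.1, and -0.053. Not every library correlated best with its own number. With 3 libraries per group, such correlations cannot decide whether the replicate numbers pair the libraries. The replicate block gave 762 lower and 848 higher genes over the table, and 9 lower and 6 higher partner genes. *TUBB3* rested on 31 to 68 reads per library, and the 95% interval of its log2(FC) was -0.91 to 0.47.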
